A study of Mus musculus with 8 samples.

Results

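The genes described here encode the steps that carry glucose carbon from the cell surface through glycolysis to lactate and pyruvate, and from pyruvate through the mitochondrial tricarboxylic acid (TCA) cycle. They were taken by gene symbol from a list of 39 genes, which covers glucose and lactate transporters (4 genes), glycolysis enzymes (14), lactate dehydrogenase (2), the mitochondrial pyruvate carrier (2), the pyruvate dehydrogenase complex (5) and the TCA cycle (12). Of the 39, 38 were found among the 11783 genes of the deposited expression table, and Aldoc, the brain-type aldolase, was not analysed here. The filter on low values left 37 of the 38 among the 10756 genes tested, and the neuronal-type glucose transporter gene Slc2a3 fell below it.

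Expression was measured by RNA-seq of total RNA from granulosa cells, the somatic cells that surround the oocyte, isolated from ovaries of C57BL/6 mice. There were 4 libraries at postnatal day 1 (PND1) and 4 at postnatal day 4 (PND4), with no treatment or genetic change given for either age. The series is framed around primordial follicle activation, the start of growth of the first resting follicles. Values are FPKM (fragments per kilobase of transcript scaled to mapped depth), which are scaled by gene length and so can be compared between genes.

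Glycolysis splits glucose in the cytosol into pyruvate, which is either reduced to lactate by lactate dehydrogenase or carried into the mitochondrion. There the pyruvate dehydrogenase complex turns it into acetyl-CoA, which citrate synthase feeds into the TCA cycle. Mouse oocytes use glucose poorly and rely on pyruvate supplied by the granulosa cells around them, which are glycolytic, and the heart-type lactate dehydrogenase gene Ldhb is abundant in mouse oocytes.

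Whether libraries of the same age derive from different animals or litters is not in the labels, and p-values measure only the spread between these libraries, which may be technical. Read depth is unknown, and FPKM totals per library ran from 443333 to 505035. Genes listed at exactly 0 numbered from 222 to 1234 per library, with the most in PND1 replicate 1 (1234) and PND4 replicate 1 (1097). Of the granulosa and pregranulosa markers, 20 of 22 were in the table, with a summed level of 1041 to 1516 FPKM at PND1 and 1105 to 1498 at PND4, most of it from the keratin genes Krt18 and Krt8 (means of 493 and 373), which surface epithelium also expresses. Of these markers Wnt4 was lower and Rspo1 higher in all PND4 libraries than in all PND1 libraries (limma adjusted p = 0.743 and 0.805). The defining marker Foxl2 lay between 10.5 and 26.2 FPKM in all 8 libraries. Amh, made by growing follicles, had 0, 0, 0 and 0.239 FPKM at PND1 and 0, 7.87, 4.04 and 1.81 at PND4. It fell below the filter on low values and was not tested. Stroma markers, all 14 in the table, summed to 1072 to 1762 FPKM at PND1 and 970 to 1572 at PND4, most of it from the contractile genes Acta2 and Tagln. The fibroblast marker Dcn had 16.4 to 26.2 FPKM at PND1 and 30.3 to 45.4 at PND4 without overlap (log2 difference 0.83, limma unadjusted p = 0.00132, adjusted p = 0.556). Tcf21 and Col1a1 had log2 differences of 1.27 and 0.45 with overlap (limma unadjusted p = 0.00354 and 0.0486, adjusted p = 0.736 and 0.805). Tagln, Lox, Mfap4 and Acta2 had -0.22, -0.18, -0.14 and -0.02, and the other stroma markers lay above 0. Apart from Dcn, the ages overlapped for every stroma marker, and the part of stromal RNA in the results was not tested. Oocyte markers, 16 of 20 in the table, summed to 21.01 to 102 FPKM at PND1 and to 51.1 to 343 at PND4, the 343 being in PND4 replicate 3. This sum joins markers that moved in opposite directions. Figla and Sycp3 were lower at PND4 without overlap (log2 differences -1.77 and -0.85). Dazl (-1.24), Kit, Lhx8, Nobox and Sohlh1 also lay below 0, with overlap. The other tested oocyte markers lay above 0 with overlap, the highest being Zp3 (2.32) and Padi6 (2.18). None passed the adjusted test (limma adjusted p = 0.740 for Figla, Zp3 and Padi6). Erythroid markers, 3 of 9 in the table and all of them globins, summed to 17.1 to 48.9 FPKM at PND1 and 0.268 to 11.4 at PND4 without overlap, and their part in the results was not tested. In bulk RNA, fewer cells of a type and less RNA per cell cannot be told apart.

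Levels differed by step along the pathway, low at glucose entry and the first steps and high from aldolase to lactate dehydrogenase. Summed over isozymes and averaged over the 8 libraries, glucose transporters stood at 42.5 FPKM, hexokinases at 17.1, glucose phosphate isomerase at 67.7 and phosphofructokinases at 28.9. From aldolase on, the glycolytic steps were high, with 334 FPKM for aldolase, 132 for triosephosphate isomerase, 183 for glyceraldehyde phosphate dehydrogenase, 152 for phosphoglycerate kinase, 185 for phosphoglycerate mutase, 221 for enolase, 332 for pyruvate kinase and 361 for lactate dehydrogenase. These levels count only FPKM listed under a gene's own symbol, and some of these genes have near-identical copies, described below. With copies added, the approximate means were 1125 FPKM for glyceraldehyde phosphate dehydrogenase, 309 for enolase, 292 for phosphoglycerate mutase and 198 for phosphoglycerate kinase. The monocarboxylate transporters, which move lactate and pyruvate across the plasma membrane, summed to 34.3 FPKM, and the mitochondrial pyruvate carrier to 44.2.

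Within the mitochondrial steps, citrate synthase (153 FPKM), the sum of the 3 subunits of isocitrate dehydrogenase 3 (174) and the malate dehydrogenases (248, of which the cytosolic form Mdh1 was 38.4) were above the rest. The isocitrate dehydrogenase 3 subunits belong to 1 enzyme, and singly Idh3a, Idh3b and Idh3g stood lower, at 62.5, 48.5 and 63.5 FPKM. The E1 subunits of pyruvate dehydrogenase summed to 79.8 FPKM, the E1 and E2 components of oxoglutarate dehydrogenase stood at 57.8 and 43.6, and fumarase at 28.7. Among all listed genes other than mitochondrially encoded ones, Aldoa was number 103 by mean level, Pkm 105, Ldha 117, Eno1 169, Mdh2 186, Gapdh 225 and Cs 277. These ranks use FPKM under the gene's own symbol, without copies. The median mean level was 64.4 FPKM over the 18 tested transport, glycolysis and lactate dehydrogenase genes and 38.9 over the 19 genes from the pyruvate carrier to the TCA cycle, called mitochondrial here although Mdh1 is among them, beside 9.64 over all genes tested. The 38 genes together made up 0.612% to 0.711% of summed FPKM per library, and 0.867% to 0.926% once mitochondrially encoded entries were left out.

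**Figure D1:**
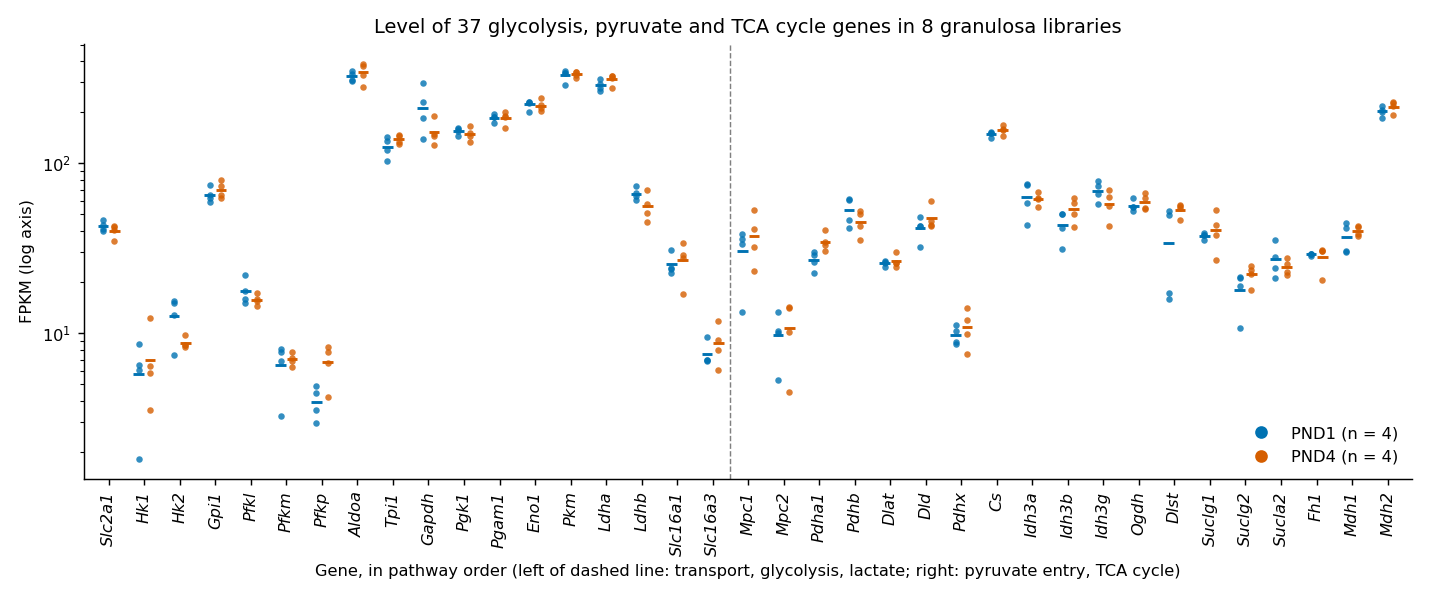
Level of each of the 37 tested genes in FPKM (log axis) in pathway order, with 1 point per library, PND1 in blue and PND4 in orange, n = 4 each, and a bar at the mean of each age. The steps from Aldoa to Ldha stand above 100 FPKM in all libraries, Mdh2 and Cs stand out on the mitochondrial side, and the points of both ages lie over each other for every gene but Pdha1.

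Several glycolytic genes have near-identical copies elsewhere in the genome, mostly processed pseudogenes (intronless copies of an mRNA), and these copies carried FPKM of their own in the table. At least 95% identity over at least 300 aligned bases was found for 11 of the 39 genes, 9 of 20 on the transport, glycolysis and lactate dehydrogenase side and 2 of 19 on the mitochondrial side, and for 7 of them at least 1 copy was in the table. All 7 are on the first side: Gapdh, Eno1, Pgam1, Pgk1, Pkm, Ldhb and Gpi1. Gapdh, which oxidises glyceraldehyde 3-phosphate and is often used as a reference gene, had 76 such copies in the annotation and 26 in the table.

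The sequences show how little separates a gene from its copy. Gapdh (ENSMUSG00000057666) lies at chr6:125161715-125166467 on the minus strand of GRCm38, and its intronless copy Gm5559 at chr5:95861714-95862715 on the plus strand. They differ at 1 of 1002 coding bases, and the capital in the stretch of coding bases 325 to 444 marks that base. Eno1 (ENSMUSG00000063524), for enolase, lies at chr4:150236721-150248879 on the plus strand and its copy Gm4735 at chr2:80837141-80838442 on the plus strand. They differ at 5 of 1302 aligned coding bases, 1 of which is in the stretch shown, coding bases 666 to 785. All 4 are written 5′ to 3′ along the coding strand, from GENCODE M21 transcripts.
Gapdh: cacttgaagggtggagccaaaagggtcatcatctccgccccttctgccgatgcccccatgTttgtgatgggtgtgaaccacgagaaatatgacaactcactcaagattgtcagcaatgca
Gm5559: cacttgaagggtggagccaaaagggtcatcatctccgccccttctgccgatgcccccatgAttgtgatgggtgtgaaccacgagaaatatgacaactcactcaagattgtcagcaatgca
Eno1: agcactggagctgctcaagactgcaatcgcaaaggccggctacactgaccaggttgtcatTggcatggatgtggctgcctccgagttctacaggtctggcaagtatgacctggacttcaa
Gm4735: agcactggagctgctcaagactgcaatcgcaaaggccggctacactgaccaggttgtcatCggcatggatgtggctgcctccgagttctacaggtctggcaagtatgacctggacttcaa
A read that does not cover such a base fits both places. How FPKM were assigned to gene and copy depends on the counting program, which was not given in the sources used here. Pgam1-ps2, a copy of the phosphoglycerate mutase gene Pgam1, was identical to it over all 765 aligned bases, and the Pgk1 copies Gm5537 and Pgk1-rs7 were identical to it over 1252 and 1255 bases.

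The share of FPKM listed under copies was largest for Gapdh. The gene itself had 298, 229, 139 and 185 FPKM in PND1 replicates 1 to 4 and 190, 149, 145 and 129 in PND4 replicates 1 to 4. Its 26 copies summed to 992, 866, 926 and 1018 FPKM at PND1 and to 1031, 974, 927 and 801 at PND4. Every library thus had several times more FPKM under the copies than under Gapdh. The copies held 76.9% to 86.9% of the sum per library, and Gm5559 with 149 FPKM, Gm7336 with 122 and Gm12070 with 89.9 had the highest 8-library means. These sums add per-length values over entries of different length and are approximate. Whether a read that fits several places was counted once or at each is unknown. The sums and shares with copies may therefore count a read more than once.

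Taken alone, Gapdh averaged 213 ± 67.6 FPKM in PND1 libraries and 153 ± 26.1 in PND4 libraries (SD, n = 4), with a log2 difference of -0.43 (95% interval -0.89 to 0.03, limma unadjusted p = 0.0627, adjusted p = 0.805). The ages overlapped, and PND1 replicate 1 was the highest library, without which the difference was -0.25. With the copies added, the sums were 1163 ± 103 FPKM at the first age and 1086 ± 121 FPKM at the second (SD, n = 4), and the log2 difference was -0.10 (95% interval -0.35 to 0.14, limma adjusted p = 0.881). For Eno1 the copies held 18.9% to 31.2% of the sum, for Pgam1 34.6% to 37.7%, for Pgk1 20.6% to 26.1%, for Pkm 4.89% to 7.81%, for Ldhb 0.817% to 13.5% and for Gpi1 5.36% to 10.4%. Adding the copies changed the sign of none of the 7 differences.

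**Figure D2:**
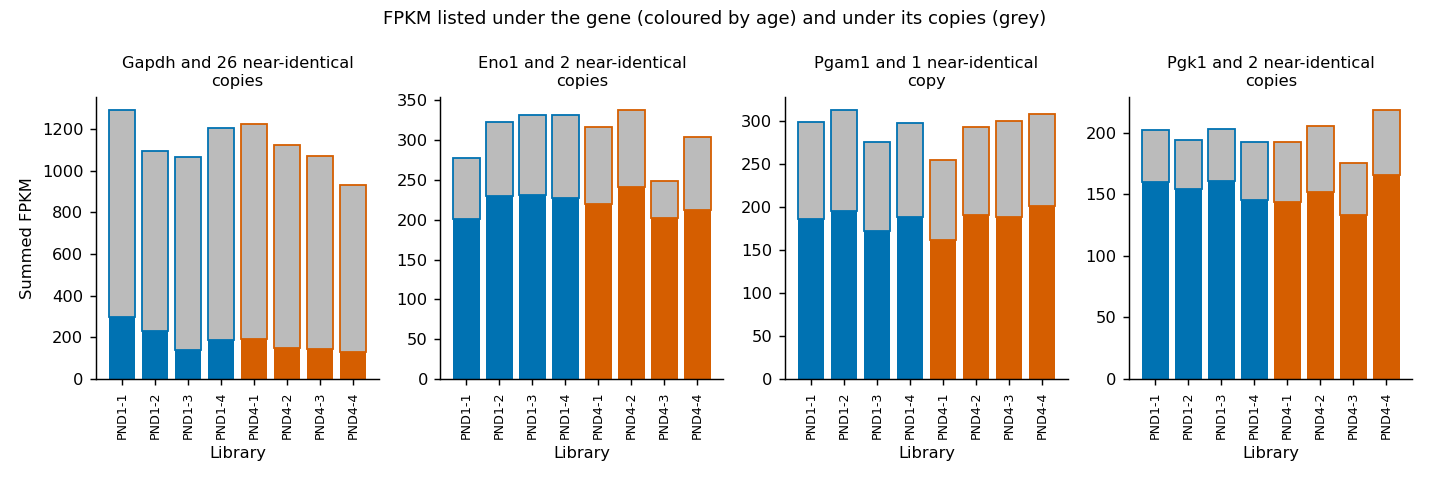
Summed FPKM per library for Gapdh, Eno1, Pgam1 and Pgk1, with the part listed under the gene in the colour of the age (blue PND1, orange PND4) and the part listed under near-identical copies in grey. In Gapdh the grey part is 76.9% to 86.9% of each bar, and in Pgam1 it is 34.6% to 37.7%.

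The age comparison asks which of these transcripts differ in granulosa cells between PND1 and PND4. None of the 37 tested genes passed the test in either direction (limma on log2(FPKM + 1), Benjamini-Hochberg adjusted p under 0.05), beside 0.0093% of all genes tested. That share is 1 gene, the antisense gene Gm16272, which is no pathway gene and was noted after its values were seen. The smallest adjusted p of a pathway gene was 0.805. An unadjusted p under 0.05 was had by 2 of 37, Dlst and Pdha1, both higher at PND4, beside 5.9% of all genes tested (4.06% higher and 1.84% lower). The libraries of the ages did not overlap for 1 of 37, Pdha1, higher at PND4, beside 4.24% of all genes (3.16% higher and 1.08% lower).

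The log2 differences ran from -0.44 (Hk2) to 0.84 (Dlst). Of the 37, 24 had a log2 difference above 0 and 13 below, beside 60.3% above 0 over all genes, and with median-of-ratios scaling the split was 18 above and 19 below. The sign of Aldoa, Pkm, Slc16a1, Dlat, Ogdh and Suclg1 turned from positive to negative with either scaling alternative, and that of Cs with upper-quartile scaling. The median log2 difference was 0.07 over the 37, 0.04 over the 18 transport, glycolysis and lactate dehydrogenase genes and 0.08 over the 19 mitochondrial ones, where all genes had 0.08. The median 95% interval reached 0.37 to either side over the 37 and 0.65 over all genes. The 95% interval lay within 1 log2 unit to either side of 0 for 33 of 37 and within a 1.5-fold change for 21 of 37, beside 58.2% and 21.4% of all genes. All genes had lower levels, with a median of 9.64 FPKM beside 43.6 over the 37. Among the 5251 tested genes with a mean of at least 10 FPKM, the interval met these bounds for 4413 and 2190. In that set the median interval reached 0.44 to either side, at a median level of 24.2 FPKM. The median within-age SD was 0.23 on the log2 scale over the 37 and 0.28 over the 5251 tested genes with a mean of at least 10 FPKM.

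**Figure D3:**
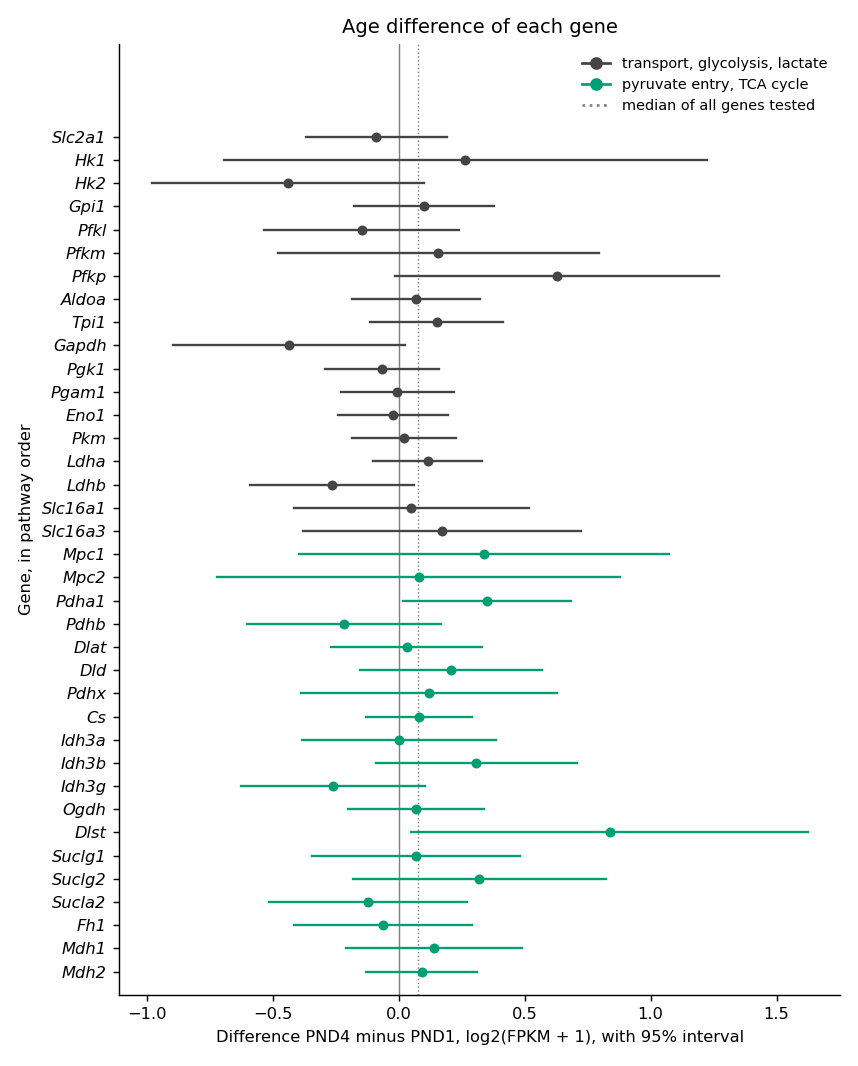
Log2 difference, PND4 minus PND1 on log2(FPKM + 1), of each of the 37 genes in pathway order, with the 95% interval of the limma fit (n = 4 per age), transport, glycolysis and lactate dehydrogenase in dark grey and mitochondrial steps in green. The intervals of Pdha1 and Dlst lie above 0, all others cross 0, and the dotted line marks the median of all genes tested, 0.08.

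Glucose entry and trapping came first. The main glucose transporter gene Slc2a1 (GLUT1) had 46.3, 40.0, 43.2 and 41.2 FPKM at PND1 and 34.8, 40.6, 42.5 and 42.6 at PND4. Slc2a3 was listed at 0, 0.0985, 1.83 and 0.214 FPKM and at 0.930, 0.00463, 0.640 and 4.71. Slc2a1 was thus even across libraries and made up 90.04% to 100% of the pair. The hexokinase genes, whose products trap glucose as glucose 6-phosphate, were less even. Hk2 (ENSMUSG00000000628, chr6:82725025-82774454, minus strand) had 12.8, 7.46, 14.97 and 15.4 FPKM at PND1 and 8.28, 8.51, 9.71 and 8.58 at PND4, means of 12.7 ± 3.65 and 8.77 ± 0.639 (SD, n = 4). The log2 difference was -0.44 (95% interval -0.98 to 0.10, limma unadjusted p = 0.101, adjusted p = 0.805). PND1 replicates 1, 3 and 4 were above every PND4 library, and PND1 replicate 2 was below them all. Hk1 had 1.82, 8.70, 6.54 and 6.07 FPKM at PND1 and 3.54, 6.43, 12.2 and 5.81 at PND4, with the lowest values in the libraries numbered 1 and the highest in PND4 replicate 3. Its log2 difference of 0.26 became -0.11 without PND1 replicate 1 and -0.013 without PND4 replicate 3.

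Phosphofructokinase, which commits sugar to glycolysis, is built from 3 subunit types. The liver-type gene Pfkl was the highest, with 22.1, 15.02, 15.99 and 17.8 FPKM at PND1 and 15.4, 14.5, 17.2 and 15.96 at PND4. The muscle-type gene Pfkm had 3.25, 8.11, 6.82 and 7.72 FPKM and then 7.74, 6.82, 7.18 and 6.30. The platelet-type gene Pfkp (ENSMUSG00000021196, chr13:6579768-6648777, minus strand) had 2.95, 3.53, 4.90 and 4.48 FPKM at PND1 and 8.32, 6.72, 7.79 and 4.24 at PND4. For Pfkp, 3 of the 4 PND4 libraries were above every PND1 library and PND4 replicate 4 lay among them. The means were 3.97 ± 0.887 and 6.77 ± 1.81 FPKM (SD, n = 4), and the log2 difference was 0.63 (95% interval -0.01 to 1.27, limma unadjusted p = 0.0541, adjusted p = 0.805). Pfkp shares 748 exonic bases with Pitrm1 on the opposite strand, which stood at 25.0 FPKM. Strand use in counting was not given in the sources used here. Reads of these 2 genes may not be separated.

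Of the other steps of glycolysis, Aldoa, for aldolase, had the highest FPKM listed under a gene's own symbol among the 38, below the sum of Gapdh and its copies. It had 337, 309, 306 and 348 FPKM at PND1 and 332, 282, 386 and 373 at PND4, and its log2 difference was 0.07 (-0.0099 with median-of-ratios and -0.014 with upper-quartile scaling). PND4 held both its lowest and its highest library. Within-age spread on the log2 scale was 0.16 for Aldoa and 0.37 for Gapdh, beside the median of 0.23. The log2 difference was 0.10 for Gpi1 (glucose phosphate isomerase), 0.15 for Tpi1 (triosephosphate isomerase), -0.07 for Pgk1 (phosphoglycerate kinase), -0.0049 for Pgam1, -0.02 for Eno1 and 0.02 for Pkm (pyruvate kinase). The last 3 had intervals within 0.25 to either side of 0, -0.23 to 0.22 for Pgam1, -0.24 to 0.19 for Eno1 and -0.19 to 0.23 for Pkm.

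Lactate dehydrogenase interconverts pyruvate and lactate, and its muscle-type gene Ldha dominated. Ldha (ENSMUSG00000063229, chr7:46841475-46855627, plus strand) had 292, 315, 278 and 267 FPKM at PND1 and 327, 326, 279 and 318 at PND4, with overlapping ages and a log2 difference of 0.12 (95% interval -0.10 to 0.33). Ldhb (ENSMUSG00000030246, chr6:142490249-142507957, minus strand) had 73.3, 61.0, 67.0 and 64.4 FPKM at PND1 and 51.0, 44.9, 69.9 and 57.4 at PND4. For Ldhb, PND4 replicates 1, 2 and 4 were below every PND1 library, and PND4 replicate 3 was among the PND1 values. The means were 66.4 ± 5.21 and 55.8 ± 10.7 FPKM (SD, n = 4), and the log2 difference was -0.26 (95% interval -0.59 to 0.06, limma unadjusted p = 0.101, adjusted p = 0.805), and -0.17 without PND4 replicate 2. PND4 replicate 3 is also the library with the highest summed oocyte markers, 343 FPKM where the other 7 libraries had 21.01 to 102. The highest Ldhb was in PND1 replicate 1, where these markers summed to 62.1 FPKM. PND1 replicate 2, with the lowest sum of 21.01, had 61.0 FPKM of Ldhb. The part of oocyte RNA in Ldhb levels was not tested.

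The monocarboxylate transporter genes had the shape of a major and a minor form. Slc16a1 (MCT1) had 30.9, 22.8, 24.1 and 23.8 FPKM at PND1 and 17.0, 27.9, 29.0 and 33.9 at PND4, so that PND4 spanned the whole PND1 range. Slc16a3 (MCT4, known for lactate export) had 6.92, 6.82, 9.48 and 6.97 FPKM and then 6.09, 8.01, 9.18 and 11.8. Their log2 differences were 0.05 and 0.17, and that of Slc16a1 was -0.026 with median-of-ratios and -0.030 with upper-quartile scaling.

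At the entry of pyruvate into the mitochondrion, Pdha1 was the gene whose ages did not overlap. The pyruvate carrier came before it. Mpc1 had 33.7, 36.1, 13.3 and 38.2 FPKM at PND1 and 53.3, 41.2, 32.3 and 23.3 at PND4, a wide and overlapping spread, with a log2 difference of 0.34 (95% interval -0.40 to 1.07). Mpc1 shares 480 exonic bases with 4930506C21Rik on the opposite strand, at 6.21 FPKM. Its partner Mpc2 ranged from 4.52 to 14.2 FPKM, with a difference of 0.08 (95% interval -0.72 to 0.88). These were among the widest intervals of the 37, and neither direction can be read from them.

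Pdha1 (ENSMUSG00000031299, chrX:160122209-160138413, minus strand) encodes the E1 alpha subunit of pyruvate dehydrogenase, the subunit that is switched off by phosphorylation. It had 22.7, 26.3, 29.9 and 28.8 FPKM at PND1 and 32.9, 40.7, 30.5 and 34.5 at PND4. All 4 PND4 libraries were above all 4 PND1 libraries, with the nearest pair at 29.9 and 30.5. The means were 26.9 ± 3.18 and 34.7 ± 4.36 FPKM (SD, n = 4), and the log2 difference was 0.35 (95% interval 0.02 to 0.68, limma unadjusted p = 0.0401, adjusted p = 0.805), which does not pass the adjusted test. Leaving out a library gave 0.27 to 0.41. Pdha1 shares 603 exonic bases with Map3k15 on the opposite strand, which was not analysed here. In the authors' deposited table Pdha1 had p = 0.0419 and q = 0.742, where 6.55% of all genes had p under 0.05.

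Pdhb, for the E1 beta subunit with which Pdha1's product pairs, had 61.2, 61.6, 41.7 and 46.6 FPKM at PND1 and 35.4, 52.1, 42.5 and 50.6 at PND4. The ages overlapped, at a log2 difference of -0.22 (95% interval -0.60 to 0.17, and -0.11 without PND4 replicate 1). As a share of the E1 pair, Pdha1 made up 27.1% to 41.8% at PND1 and 40.5% to 48.2% at PND4. The E2 gene Dlat ranged from 24.5 to 30.0 FPKM over the 8 libraries (log2 difference 0.03), the E3 gene Dld from 32.0 to 59.7 (0.21) and the E3-binding protein gene Pdhx from 7.51 to 14.02 (0.12).

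In the TCA cycle the widest difference was that of Dlst (ENSMUSG00000004789, chr12:85110833-85134845, plus strand), for the E2 component of oxoglutarate dehydrogenase. It had 15.8, 52.7, 49.9 and 17.4 FPKM at PND1 and 56.6, 54.3, 56.2 and 46.2 at PND4. PND1 replicates 1 and 4 were low, while PND1 replicates 2 and 3 lay within the PND4 range, so the PND1 libraries fell into 2 levels and the ages overlapped. The means were 33.9 ± 20.1 and 53.3 ± 4.88 FPKM (SD, n = 4), and the log2 difference was 0.84 (95% interval 0.05 to 1.62, limma unadjusted p = 0.0389, adjusted p = 0.805). Without PND1 replicate 1 it was 0.55 and without PND1 replicate 4 it was 0.60. With median-of-ratios scaling the limma unadjusted p of Dlst was 0.0549, and 0 of the 37 genes had one under 0.05. In the authors' deposited table, from an unnamed test, Dlst had p = 0.180 and q = 0.766. The E1 gene of the same complex, Ogdh, ranged only from 52.3 to 66.5 FPKM, with a log2 difference of 0.07 (-0.0079 with median-of-ratios and -0.012 with upper-quartile scaling), and in PND1 replicates 1 and 4 it had 52.3 and 55.5 FPKM.

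Citrate synthase (Cs), which starts the cycle, ranged from 140 to 168 FPKM and differed by 0.08 log2 units (95% interval -0.13 to 0.29, and -0.0023 with upper-quartile scaling). Subunits of isocitrate dehydrogenase 3 had differences of opposite sign that did not pass the test. Idh3b had 50.5, 31.4, 41.5 and 50.1 FPKM at PND1 and 62.8, 42.5, 58.5 and 50.6 at PND4 (log2 difference 0.31, 95% interval -0.09 to 0.71). Idh3g had 78.9, 73.8, 57.8 and 65.6 FPKM and then 42.9, 69.7, 63.8 and 55.7 (log2 difference -0.26, 95% interval -0.63 to 0.11). The difference was 0.17 for Idh3b without PND1 replicate 2 and -0.13 for Idh3g without PND4 replicate 1. The ages overlapped for both, and PND4 replicate 1 had the highest Idh3b and the lowest Idh3g of all libraries. The catalytic alpha subunit gene Idh3a had means of 63.1 ± 15.2 and 61.8 ± 5.20 FPKM (SD, n = 4).

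Succinyl-CoA ligase pairs an alpha subunit (Suclg1) with a GTP-forming (Suclg2) or an ATP-forming (Sucla2) beta subunit. Suclg2 had 10.7, 19.0, 21.2 and 21.4 FPKM at PND1 and 23.7, 24.8, 22.3 and 18.05 at PND4, with PND1 replicate 1 well below the rest and a log2 difference of 0.32 (95% interval -0.18 to 0.82), which was 0.10 without that library. Sucla2 had 35.3, 21.1, 24.3 and 28.0 FPKM and then 27.9, 22.1, 22.9 and 25.5, with its highest value in PND1 replicate 1 and a difference of -0.12. Suclg1 ranged from 27.1 to 53.4 FPKM and the fumarase gene Fh1 from 20.7 to 31.1, both with overlapping ages.

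Malate dehydrogenase closes the cycle in the mitochondrion (Mdh2) and has a cytosolic form (Mdh1) that serves the malate-aspartate shuttle. Mdh2 had 205, 201, 186 and 217 FPKM at PND1 and 193, 228, 226 and 216 at PND4. Mdh1 had 30.2, 41.6, 30.7 and 44.5 FPKM and then 42.2, 38.2, 42.5 and 37.4. Mdh2 exceeded Mdh1 in every library, at 82.0% to 87.2% of the pair, and the log2 differences were 0.09 and 0.14.

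The isozyme make-up of the steps overlapped between the ages for every gene pair and subunit group examined. Ldhb made up 16.2% to 20.05% of lactate dehydrogenase FPKM at PND1 and 12.1% to 20.02% at PND4. Hk1 made up 12.4% to 53.8% of the hexokinase pair at PND1 and 29.9% to 55.8% at PND4. Pfkp made up 10.4% to 17.7% of phosphofructokinase at PND1 and 15.99% to 26.4% at PND4. Averaged over the 8 libraries, Pfkl made up 58.2% of phosphofructokinase, Ldha 83.0% of lactate dehydrogenase and Slc16a1 76.1% of the transporter pair. Shares of a few genes are tied to each other by construction, and no test was made of them.

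**Figure D4:**
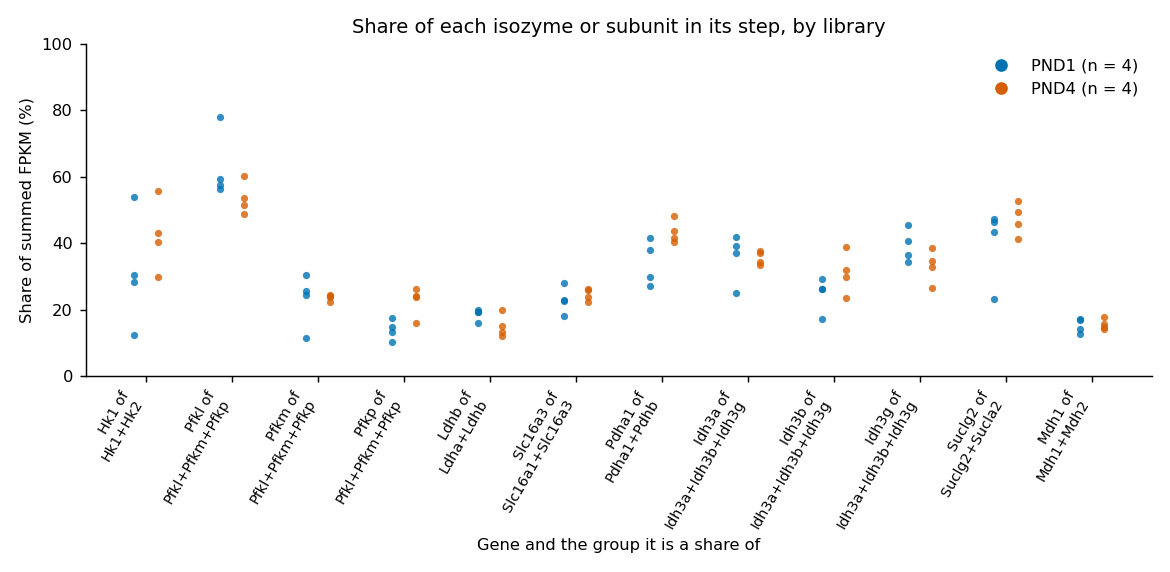
Share (%) of a gene in the summed FPKM of its step, with 1 point per library, PND1 in blue and PND4 in orange (n = 4 each). The points of the ages overlap in every column, and the Pfkp column reaches from 10.4% to 26.4% over both ages.

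The balance between the upper and the mitochondrial part was described per library as the mean log2(FPKM + 1) of the 18 transport, glycolysis and lactate dehydrogenase genes minus the mean of the 19 mitochondrial genes. It was 0.50, 0.43, 0.52 and 0.46 in PND1 replicates 1 to 4 and 0.39, 0.24, 0.43 and 0.40 in PND4 replicates 1 to 4. Every PND1 library was above every PND4 library, by a gap that at its narrowest lay between 0.434 and 0.428. The means were 0.48 ± 0.036 and 0.37 ± 0.084 (SD, n = 4), a difference of -0.11 on the log2 scale. Without PND4 replicate 2, the lowest library, it was -0.070. No test was made of this balance, since its genes were chosen with results of these data known.

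The separation was narrow and did not hold in every setting. Without Dlst the ages overlapped, with a difference of -0.071, and without Gapdh they overlapped as well, with -0.085. With the median over genes in place of the mean the difference was -0.24 with overlap. With Dlst and Gapdh both left out the difference was -0.045, and with near-identical copies added to their genes it was -0.094 with overlap. Leaving out each of the 37 genes in turn, the ages stayed apart in 23 cases and overlapped in 14. The ratio of summed FPKM of the upper to the mitochondrial genes, which the most abundant genes dominate, was 2.10 to 2.38 at PND1 and 1.90 to 2.15 at PND4 and overlapped.

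The libraries with the lowest and highest values differed from gene to gene. PND1 replicate 1 was the lowest of the 8 libraries for 12 of 37 genes and PND4 replicate 1 for 10, beside 30.1% and 24.3% of all genes tested. In PND1 replicate 1, Hk1, Pfkm, Dlst and Suclg2 were low while Gapdh, Ldhb and Sucla2 were at their highest. In PND4 replicate 1, Mpc2, Slc16a1, Idh3g and Fh1 were at their lowest while Mpc1, Pfkp and Idh3b were at their highest. These 2 libraries are the ones with the most genes listed at 0, and the part of library quality in these values was not tested. The median absolute deviation of the 37 genes from their 8-library means was 0.18 and 0.20 on the log2 scale in these libraries and 0.067 in PND1 replicate 4, the lowest of the 8. Over all genes tested, this deviation was 0.35 in each of these libraries and 0.19 in PND1 replicate 4.

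**Figure D5:**
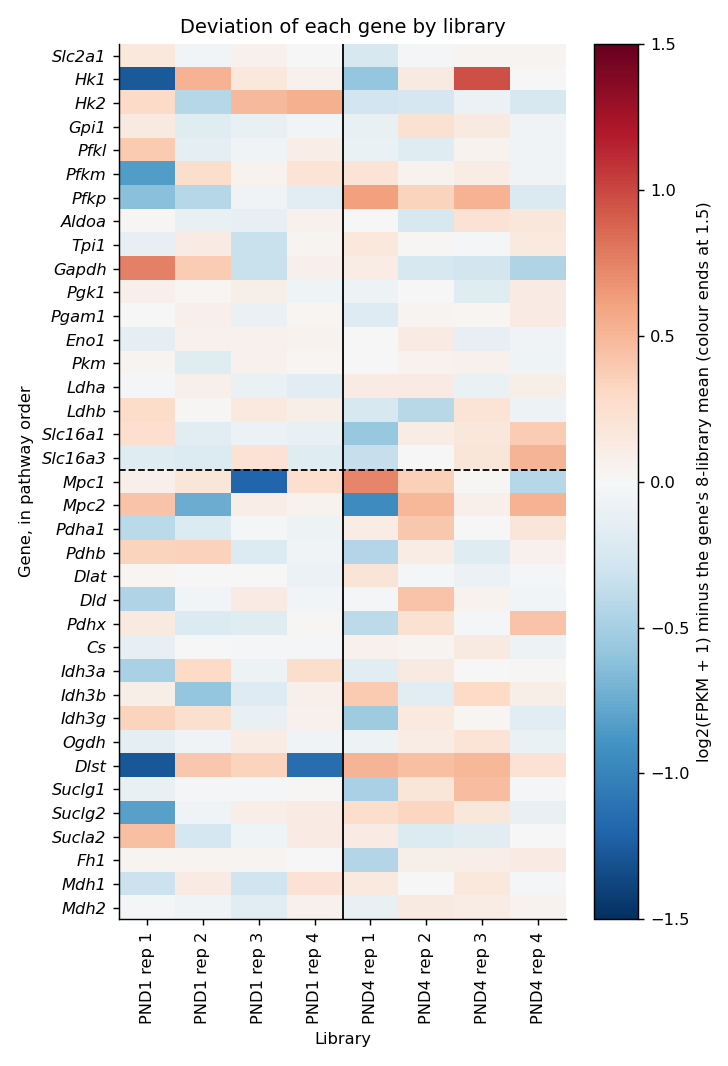
Deviation of each of the 37 genes in each library from its own 8-library mean, on log2(FPKM + 1), red above and blue below, with PND1 left and PND4 right of the solid line and transport, glycolysis and lactate dehydrogenase above the dashed line. Single genes stand out in single libraries, such as Dlst in PND1 replicates 1 and 4.

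Other genes of the same metabolism were read from 7 lists of 111 genes in all, 70 in the table and 67 tested, and none passed the test in either direction (limma, smallest adjusted p = 0.740). Their median log2 difference was 0.03, beside 0.08 over all genes tested. The ages did not overlap for 2 of the 67, Pgm1 and H6pd, beside 4.24% of all genes tested. Among 11 tested isozymes and regulators of glycolysis, the gene listed as Pgm1 (ENSMUSG00000029171, chr5:64092950-64128351, plus strand), an older mouse symbol for a mutase that acts mainly on pentose phosphates, had 17.5, 17.7, 16.5 and 17.0 FPKM at PND1 and 32.7, 23.1, 23.8 and 23.9 at PND4. All its PND4 values lay above all its PND1 values. The log2 difference was 0.55 (95% interval 0.20 to 0.91, limma unadjusted p = 0.00571, adjusted p = 0.740). The mutase that links glucose 1-phosphate and glucose 6-phosphate is the gene listed as Pgm2 (ENSMUSG00000025791), with a difference of 0.18 and overlapping ages. Pgam5, a mitochondrial phosphatase named for its likeness to the mutase, averaged 32.9 ± 5.78 FPKM in PND1 libraries and 22.1 ± 10.4 in PND4 libraries (SD, n = 4), overlapping. The PND4 minus PND1 value was -0.66 on the log2 scale (limma unadjusted p = 0.0487, adjusted p = 0.805). The enolase gene Eno1b had 39.2 to 49.1 FPKM in 7 libraries and was listed at 0 in PND4 replicate 3, where Eno1 had 202 FPKM.

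The 8 tested pentose phosphate genes, which divert glucose 6-phosphate to NADPH and ribose, had a median log2 difference of 0.18, with 7 above 0. All genes tested had a median of 0.08, with 60.3% above 0. H6pd, the form of the first enzyme in the endoplasmic reticulum, had 27.5, 29.0, 5.48 and 28.1 FPKM at PND1 and 37.7, 32.6, 37.7 and 36.9 at PND4, so the ages did not overlap and PND1 replicate 3 was far below the rest. Its log2 difference was 0.89 (95% interval -0.04 to 1.82, limma unadjusted p = 0.0580). The transketolase gene Tkt had 126 ± 22.7 and 153 ± 17.2 FPKM (SD, n = 4; log2 difference 0.29) with overlap.

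Of 5 tested regulators of pyruvate dehydrogenase, the kinase gene Pdk2 had 3.26, 1.77, 4.01 and 4.46 FPKM at PND1, was listed at 0 in PND4 replicate 1 and had 1.03, 2.56 and 2.41 in PND4 replicates 2 to 4. Its log2 difference was -0.93 (limma unadjusted p = 0.0791), with overlap, and that of the phosphatase regulator gene Pdpr was 0.24, at 4.77 ± 1.90 and 5.48 ± 0.613 FPKM (SD, n = 4). The other kinase genes tested, Pdk3 and Pdk4, had 8-library means of 29.9 and 16.2 FPKM, beside 2.44 for Pdk2. Their log2 differences were -0.07 and 0.16, with overlapping ages. The kinases encoded by these genes phosphorylate the Pdha1 product. Of 13 other TCA cycle and anaplerotic genes, Pck2, the mitochondrial phosphoenolpyruvate carboxykinase, had 7.08 ± 2.67 and 11.9 ± 3.58 FPKM (SD, n = 4; log2 difference 0.69, limma unadjusted p = 0.0572), and the malic enzyme gene Me2 had 73.6 ± 11.5 and 87.9 ± 8.85 FPKM (SD, n = 4), a difference of 0.26. The succinate dehydrogenase genes Sdha, Sdhb, Sdhc and Sdhd lay at -0.02, -0.03, -0.05 and 0.17.

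The next list held 9 tested genes of NADH shuttle enzymes and mitochondrial carriers. Its citrate carrier gene Slc25a1 averaged 61.9 ± 26.2 FPKM in PND1 and 43.5 ± 5.05 in PND4 libraries (SD, n = 4), with 101 FPKM in PND1 replicate 1. The log2 difference of Slc25a1 was -0.42. The enzyme gene Gpd1l had 4.52 ± 3.53 and 7.87 ± 4.06 FPKM (SD, n = 4), a log2 difference of 0.80. Of 5 tested genes of gluconeogenesis, citrate use and NADPH supply, G6pc3, a glucose 6-phosphatase of the endoplasmic reticulum, had 19.5 ± 5.13 and 14.2 ± 6.41 FPKM (SD, n = 4), a difference of -0.53. The cytosolic malic enzyme gene Me1 had 85.3 ± 28.4 and 97.1 ± 16.4 FPKM (SD, n = 4), a difference of 0.24. Among 16 tested genes of the hypoxia-inducible factor HIF1 and its targets outside glycolysis, 8 lay above 0 and 8 below, with a median of -0.03. Over all genes tested, 60.3% lay above 0 and the median was 0.08. Car9, a carbonic anhydrase, was listed at 0 in PND1 replicate 1, had 0.562, 2.11 and 1.28 FPKM in PND1 replicates 2 to 4 and 2.02, 3.47, 1.85 and 2.21 at PND4 (log2 difference 0.87), and the demethylase gene Kdm3a had 7.29 ± 0.805 and 5.70 ± 2.51 FPKM (SD, n = 4), a difference of -0.39. Hif1a itself averaged 50.1 FPKM in PND1 and 54.2 in PND4 libraries, with a log2 difference of 0.10.

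HIF1 is known to bind ACGTG and GCGTG cores in promoters of glycolytic genes, so the promoter windows of RefSeq on GRCm38.p6, 250 bases before to 50 after a start, were searched for these letters. Windows were found for 37 of the 39 genes, 54 in all. The 5 letters ACGTG, read on both strands, occurred in 50% of the 30 windows of transport, glycolysis and lactate dehydrogenase genes, in 37.5% of the 24 of mitochondrial genes, of which 6 belong to Ogdh and partly overlap, in 26.8% of windows of all genes tested and in 19.6% of all windows. ACGTG or GCGTG occurred in 80% and 66.7%, beside 64.4% and 43.8%. Counted by gene, ACGTG occurred in 13 of 19 transport, glycolysis and lactate dehydrogenase genes and in 4 of 18 mitochondrial genes. The same count was 2308 of 7457 tested genes with a window and 5886 of all 27025 genes with a window. For ACGTG or GCGTG the counts by gene were 17 of 19 and 11 of 18, beside 5254 of 7457 and 12628 of 27025. The 250 bases before the start of Ldha, at chr7:46845554-46845803 on the plus strand, are shown because they held the most ACGTG matches of the glycolytic windows, and those of Pgk1, at chrX:106186850-106187099 on the plus strand, as another case. The RefSeq start of Ldha used here lies 4329 bases inside the gene as GENCODE draws it.
Ldha: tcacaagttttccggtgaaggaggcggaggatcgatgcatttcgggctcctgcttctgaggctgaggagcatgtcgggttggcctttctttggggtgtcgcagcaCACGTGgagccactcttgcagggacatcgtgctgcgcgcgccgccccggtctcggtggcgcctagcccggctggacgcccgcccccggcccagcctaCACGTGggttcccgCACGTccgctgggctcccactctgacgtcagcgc
Pgk1: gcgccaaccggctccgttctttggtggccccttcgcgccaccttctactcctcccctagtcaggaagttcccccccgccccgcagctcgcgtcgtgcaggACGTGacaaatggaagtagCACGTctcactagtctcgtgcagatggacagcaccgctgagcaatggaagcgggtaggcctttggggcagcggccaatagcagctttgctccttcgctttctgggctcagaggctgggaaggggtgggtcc
Capitals mark ACGTG or its reverse complement, and CACGTG where the strands overlap, which counts once on each strand. Ldha held 5 such matches and Pgk1 held 2. These are matches of letters and not measured sites, and neither gene passed the age test.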

How the data were processed

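Isolated granulosa cells gave RNA through a column kit for small samples, and libraries followed standard Illumina procedures, per the labels' protocols. The submitters' processing notes name Trim Galore for trimming, HISAT2 for alignment and GRCm38 as the genome, with no versions. The deposited FPKM table holds 8 libraries, per the file headers. Of the quantification program, its annotation, strand use and filter, nothing was given in the sources used here. A second deposited table has, for each gene, the authors' fold (a ratio of PND1 to PND4, as its values show) and log2 fold. It also has the authors' p-value and q-value from an unnamed test, in which 0 genes had q under 0.05.

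The genes and lists were chosen with earlier results of these data known. FPKM are not counts, and limma 3.58.1 in R 4.3.3 on log2(FPKM + 1) took the place of a planned count test, with a variance trend and without a block, for the contrast PND4 minus PND1. Folds on this scale understate changes of low genes. The filter asked for 1 FPKM or more in 4 or more libraries and left 1027 genes untested. Benjamini-Hochberg adjustment ran over all 10756 genes, at a threshold of 0.05. The fit was tested on simulated data. Low values were also searched for whole multiples of 1 read. At the best unit, 25.1% to 28.6% came within 0.1 of a multiple, beside 20% by chance, so reads were not recovered and depth is unknown. Whether the replicate numbers of the titles pair the libraries is not in the labels. Correlations of same-numbered deviations ran from -0.0088 to 0.12, which cannot decide it.

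Every gene of the set was accounted for. Values per library were given for the 5 of smallest p higher at PND4 and the 5 lower, those whose ages did not overlap, the most abundant of each list and each pair of isozymes. From each of the 7 pathway lists the 2 with the smallest p were named with values per library or means. Other genes were named after their values were seen. Summed marker levels for immune cells (5 of 10 in the table) were 9.27 to 29.8 FPKM at PND1 and 2.92 to 59.8 at PND4, for theca cells (2 of 6) 4.71 to 12.6 and 2.33 to 6.26, and of 9 endothelial markers 0 were in the table.

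GENCODE M21 (GRCm38) supplied positions and held 11770 of the 11783 identifiers, and RefSeq supplied promoter windows. Near-identical copies were found by searching the longest coding transcript of each gene against all GENCODE transcripts with blastn 2.17.0. Alternatives covered scaling, the filter, the pseudocount (0.1 and 5), robust variance, a block by replicate number and omission of each library. Adding the FPKM of copies and leaving Dlst or Gapdh out of the balance were chosen after seeing the data. Plots were made with matplotlib 3.10.9 in Python 3.11.15.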

Additional observations from a re-analysis of the deposited data

Results flagged for a closer look

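In 6 of 78 groups of 4 libraries, 1 library of an age lay far from the other 3 relative to the spread of the group, where chance alone would give about 1 in 20, or 3.9. At PND1, Slc16a1 had 30.9 FPKM in replicate 1, beside 22.8 to 24.1 in the others. Eno1 had 201 FPKM in PND1 replicate 1, beside 228 to 231. Pkm had 291 FPKM in PND1 replicate 2, beside 338 to 348. Slc16a3 had 9.48 FPKM in PND1 replicate 3, beside 6.82 to 6.97, and Slc2a3 had 1.83 FPKM in the same library, beside 0 to 0.214. At PND4, Fh1 had 20.7 FPKM in replicate 1, beside 30.3 to 31.1.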

How the results depend on the processing

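Under every alternative 0 of the pathway genes were called, and the smallest adjusted p of such a gene under any of them was 0.726. Of 598 differences under an alternative, 36 had the other sign, over 17 genes. With median-of-ratios scaling the log2 difference was -0.0099 for Aldoa, -0.044 for Dlat, -0.0079 for Ogdh, -0.056 for Pkm, -0.026 for Slc16a1 and -0.0072 for Suclg1. With upper-quartile scaling it was -0.014 for Aldoa, -0.0023 for Cs, -0.048 for Dlat, -0.012 for Ogdh, -0.061 for Pkm, -0.030 for Slc16a1 and -0.011 for Suclg1. These scalings moved the median of all genes from 0.08 to 0.0086 and 0.0048. With a pseudocount of 0.1, Idh3a had 0.00043. Leaving out each library in turn gave -0.026 to 0.066 for Dlat, -0.071 to 0.014 for Eno1, -0.11 to 0.074 for Fh1, -0.11 to 0.50 for Hk1, -0.16 to 0.099 for Idh3a, -0.0023 to 0.54 for Mpc1, -0.16 to 0.41 for Mpc2, -0.0045 to 0.27 for Pdhx, -0.094 to 0.27 for Pfkm, -0.046 to 0.060 for Pgam1, -0.036 to 0.049 for Pkm, -0.070 to 0.25 for Slc16a1, -0.23 to 0.0077 for Sucla2 and -0.074 to 0.24 for Suclg1. The cause was not tested.

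Over all genes, the count called lower was 0 to 1 when each library was left out in turn, with 0 without any 1 PND1 library and 1 without any 1 PND4 library, and the cause was not tested. The balance of upper to mitochondrial genes had a difference of -0.13 to -0.070 when each library was left out in turn, of -0.24 with the median over genes in place of the mean, with overlapping ages, and of -0.045 without Dlst and Gapdh.

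With the replicate number as a block, 0 of the 37 genes were called, their smallest adjusted p was 0.745, and over all genes 0 were called higher and 1 lower, as without the block. Whether the shared numbers mark a pairing is not in the labels. The deviations of same-numbered libraries had r = 0.046, -0.0088, 0.032 and 0.12, which cannot decide it. Depth is unknown and limits what low genes such as Slc2a3 and Hk1 can show.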
